A study of Mus musculus with 4 samples.

Results

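The 52 genes described here copy DNA or let a cell enter S phase, and they were chosen as a list of gene symbols by what they are known to do. The choice was made with earlier results of these data known, so the list was not tested. The list holds the MCM helicase, the origin recognition complex (ORC), loading and firing factors, the GINS complex, the replicative polymerases and primase, the sliding clamp and its loader RFC, the single-strand binding protein RPA, enzymes of nucleotide synthesis, lagging-strand, repair and chromatin factors, and 3 regulators of the G1/S step. Of these, 50 were measured and all 50 passed the filter on low values, among 11969 genes tested and 31728 named genes; no expression value is given for Cdt1 and Gins2.

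The RNA came from tumour stem cells of mouse skin squamous cell carcinoma (SCC), an epithelial cancer, taken from primary tumours, and was sequenced as mRNA. The reporter positive group held cells with mCherry from a transforming growth factor beta (TGF-β) reporter, labelled as having TGF-β signalling. The reporter negative group held cells without mCherry, labelled as lacking it. Both groups shared 1 genotype. It combines TetO-Hras, an Hras transgene under a tetracycline-responsive promoter, with LV-rtTA3-TGF-beta, a lentivirus with the rtTA3 transactivator and the reporter. All cells were of the strain C57BL/6 X FBV and of SCC derived from skin epidermis. Cells were depleted of other lineages, sorted on integrin α6 and CD44 and split by mCherry in 2 experiments, which gave 2 libraries per group. The promoter that drives rtTA3 is not named in the labels. The labels give no age and no number of tumours or animals, so a p-value here speaks only for the spread among the 4 libraries, which may be technical. With 2 libraries a group, the smallest two-sided p of an exact permutation test is 0.333. Levels are the authors' FPKM, read fragments divided by transcript length and by depth, summed per gene and given for experiment 1 and then experiment 2. Changes are reporter positive minus reporter negative on the log2(FPKM + 1) scale, with the SE of the limma fit over all 4 libraries.

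In each cell cycle ORC marks origins, and Cdc6 with Cdt1 loads the ring of 6 MCM proteins on DNA in G1, which is called licensing. At the start of S phase Cdc45 and GINS join the ring to form the moving helicase, primase and the polymerases follow, and PCNA holds the polymerases on DNA. Many of these genes are textbook targets of E2F transcription factors, which cyclin E with its kinase helps to release from pocket proteins, and in normal epithelia TGF-β is a known brake on this step.

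All 10 role groups had a median change below 0 in reporter positive cells, from -1.11 to -0.57. Of the 50 genes, 9 fell past the threshold in limma (adjusted p under 0.05 over all genes tested), none rose, and 41 did not pass. Over all genes tested, 2.52% fell and 2.55% rose, or 5.07% in either direction. The 9 were Ung, Rfc3, Slbp, Pcna, Pold1, Rpa2, Pole, Prim1 and Chaf1b. With the experiment as a block, 19 of the 50 fell and none rose, against 6.36% and 4.09% of all genes, and the added genes were Gins1, Lig1, Mcm2, Mcm3, Mcm4, Mcm6, Rpa3, Rrm2, Tk1 and Uhrf1. All 9 calls were lost when any 1 of the 4 libraries was left out. Without positive replicate 2 the fit called only Orc5 and Orc6. The only positive value left for each was then a 0, which can be a failed estimate. At an unadjusted p under 0.05, 36 of the 50 were lower, against 18.0% of all genes.

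In FPKM, 47 of the 50 genes had both reporter positive libraries below both reporter negative ones, which held for 42.6% of all genes tested, and the same 47 were lower within both experiments, as were 54.2% of all genes. The other three were Orc4, Rfc5 and Ccne1. The median change of the 50 genes was -0.77 on the log2(FPKM + 1) scale, and that of all genes tested was -0.18. The median over all genes is not at 0, so the libraries were also scaled by the median of their ratios, which put all genes at 0.03 and the 50 genes at -0.56. After that scaling 43 of the 50 genes, and 26.0% of all genes, had both positive libraries below both negative ones, and Mcm5, Orc5, Rrm1 and Rfc1 joined the 3 that did not. Only Rpa2 and Ung then passed the threshold. Quantile normalization gave the 50 genes a median of -0.61 and all genes -0.03, and left 5 of the 9 past the threshold, Pcna, Rfc3, Rpa2, Slbp and Ung. The distance between the list and all genes was -0.59 on all 3 scales.

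**Figure D1:**
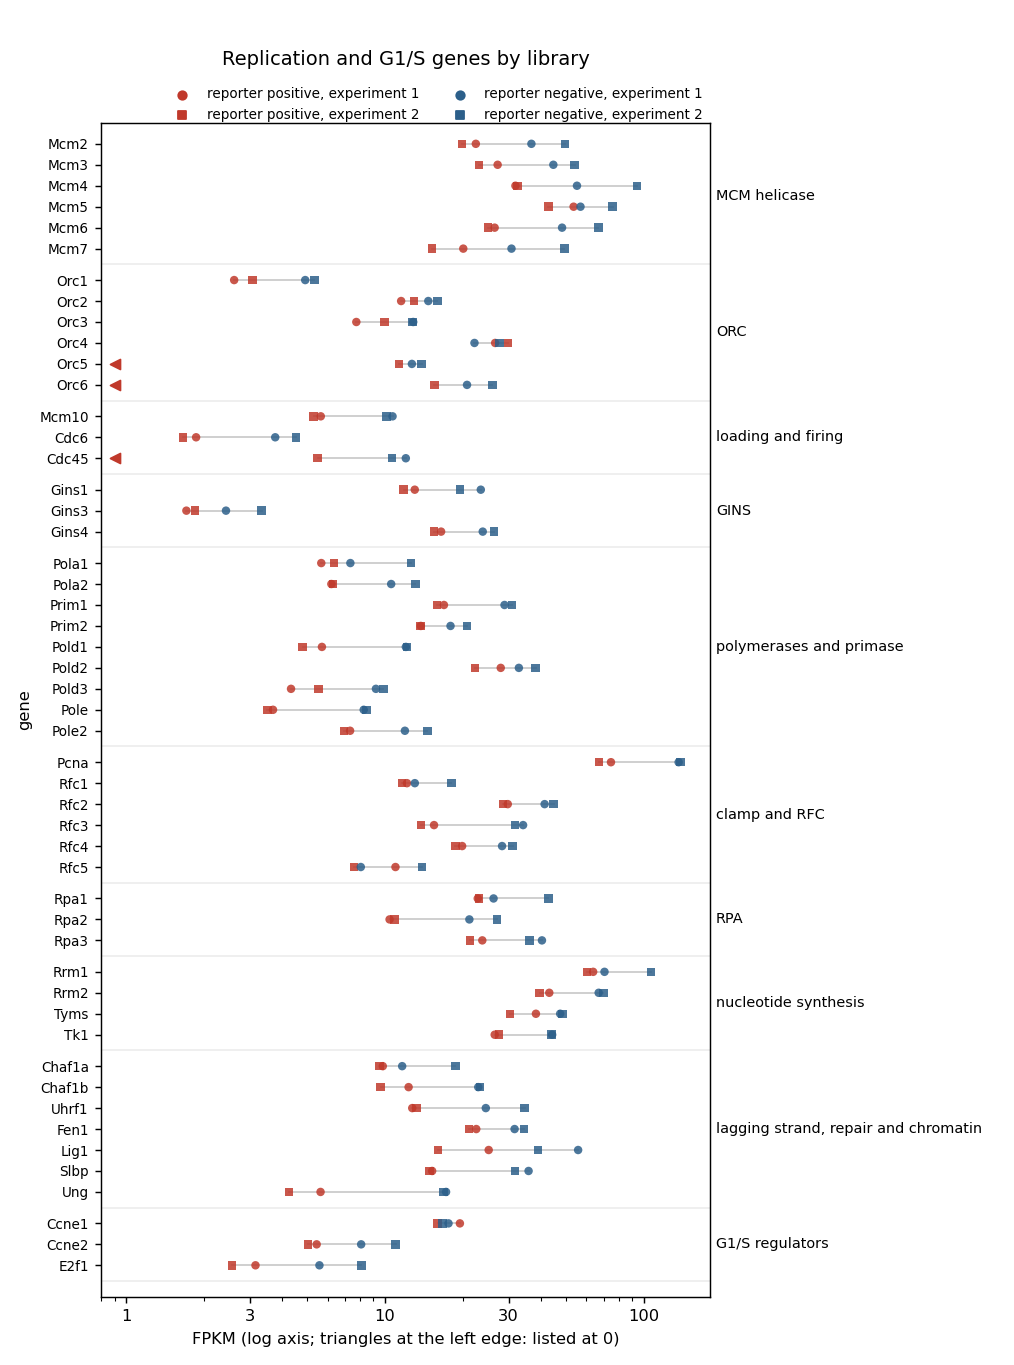
FPKM of the 50 measured genes in each library, on a log axis, grouped by role, with reporter positive libraries in red, reporter negative libraries in blue, experiment 1 as circles and experiment 2 as squares. The red symbols lie left of the blue ones for 47 genes, with Orc4, Rfc5 and Ccne1 as the exceptions, and the 3 triangles are genes listed at 0 in the reporter positive library of experiment 1.

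Summed over the 47 genes above 0 in every library, these transcripts made up 883 and 808 FPKM in the reporter positive libraries of experiments 1 and 2, against 1340 and 1563 FPKM in the reporter negative ones. The positive sum was 65.9% of the negative one in experiment 1 and 51.7% in experiment 2. In RNA from a sorted bulk of cells, fewer cells in S phase and less of these transcripts in each cell cannot be told apart.

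The promoters of several of these genes share E2F-type letters. RefSeq promoter windows (GRCm38.p6, 250 bases before to 50 after the start) were at hand for 43 of the 50 measured genes. The forms TTTCCCGC, TTTGGCGC, TTTCGCGC and TTTGCCGC were searched on both strands, counting a gene once if any window held any of them. Of the 43 genes 15 held such a form, or 34.9%, against 411 of 8214 tested genes with a window (5.0%). Among all 27025 genes with a window 704 did (2.6%). The letters CCAAT, on either strand, were in 26 of the 43 genes (60.5%), against 43.3% of tested genes and 41.1% of all genes with a window. Within 200 bases before the start, 10 of the 43 genes held an E2F-type form, against 3.51% of tested genes. Stretches before the start are printed for 3 helicase subunits, 2 licensing genes and the clamp loader gene with the lowest p, since these carry the matches through the pathway. Capitals mark the E2F-type letters, read along the strand of the gene. In Mcm5 and in the first site of Mcm6, forms on opposite strands overlap. The stretches lie at chr1:128359725-128359835 (minus strand) for Mcm6, chr8:75109336-75109387 (plus) for Mcm5, chr5:138172021-138172068 (minus) for Mcm7, chr11:98907993-98908040 (plus) for Cdc6, chr4:108579407-108579453 (plus) for Orc1 and chr5:151651209-151651238 (minus) for Rfc3.
Mcm6: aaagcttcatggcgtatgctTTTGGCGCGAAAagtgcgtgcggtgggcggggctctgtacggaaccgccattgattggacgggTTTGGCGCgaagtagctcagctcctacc
Mcm5: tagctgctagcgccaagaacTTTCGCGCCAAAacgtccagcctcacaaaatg
Mcm7: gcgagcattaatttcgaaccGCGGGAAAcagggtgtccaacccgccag
Cdc6: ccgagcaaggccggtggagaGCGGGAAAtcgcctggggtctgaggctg
Orc1: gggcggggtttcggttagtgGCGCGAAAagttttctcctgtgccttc
Rfc3: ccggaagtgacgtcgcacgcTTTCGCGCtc

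The 15 tested genes with an E2F-type form had a median change of -0.90, with a range of -1.18 to -0.45. The 28 with a window but no such form had a median of -0.73, with a range of -2.58 to 0.18. They include Orc6, which had the lowest value, Cdc45 and Orc5, each listed at 0 in 1 positive library. The lowest change among the rest was -1.61, for Ung. Over all 8214 tested genes with a window, members included, the medians were -0.35 for the 411 with a form and -0.20 for the 7803 without one. Ung, the gene with the lowest positive to negative ratio among those above 0 in every library, held neither motif, and Mcm5 held both with a change of -0.45. A match is a description of letters and says nothing of binding.

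**Figure D2:**
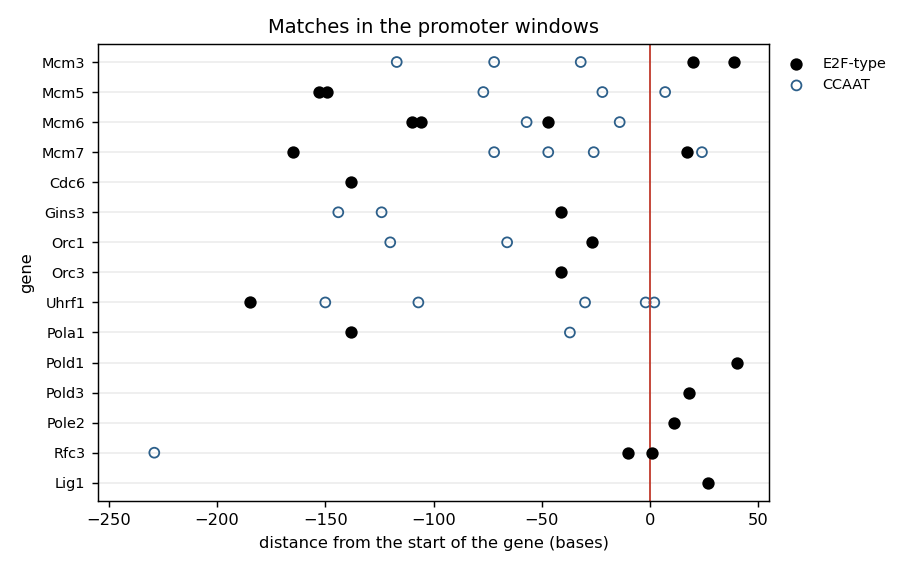
Positions of E2F-type (filled) and CCAAT (open) letters in the promoter windows of the 15 measured genes with an E2F-type form, as distance in bases from the start of the gene (red line). Among these, 10 genes hold an E2F-type match before the start and the other five only after it.

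The MCM2-7 ring unwinds DNA ahead of both polymerases. All 6 subunits were lower in both positive libraries, with a median change of -1.05, and none passed the threshold without the block. Mcm6 (mm9 chr1:130228168-130256233) had 26.5 and 24.9 FPKM in reporter positive cells, against 48.3 and 66.7 FPKM in reporter negative cells. Its change was -1.11 ± 0.20 (SE, n = 2 each), with an adjusted p of 0.0505 in limma and 0.0330 with the block. Mcm2 had 22.4 and 19.8 FPKM in reporter positive cells, against 36.8 and 49.5 FPKM in reporter negative cells (change -0.99 ± 0.20; limma adjusted p 0.0616, and 0.0463 with the block). In both genes the groups did not overlap, and the distance was larger in experiment 2. Mcm5, the subunit with the highest mean over all libraries, had 53.5 and 42.7 FPKM in reporter positive cells, against 56.9 and 75.7 FPKM in reporter negative cells. It had the change nearest to 0 of the 6, at -0.45 ± 0.21 (limma adjusted p 0.253), and its experiment 1 libraries were almost level. Mcm4 had 31.9 and 32.5 FPKM in reporter positive cells, against 55.2 and 94.0 FPKM in reporter negative cells (change -1.14 ± 0.27; limma adjusted p 0.0881, and 0.0436 with the block). Mcm3 had 27.2 and 23.1 FPKM in reporter positive cells, against 44.7 and 54.0 FPKM in reporter negative cells (change -0.94 ± 0.17; limma adjusted p 0.0527, and 0.0415 with the block). Both passed with the block, and their positive libraries lay closer together than their negative ones. Mcm7 had 20.1 and 15.1 FPKM in reporter positive cells, against 30.8 and 49.3 FPKM in reporter negative cells (change -1.12 ± 0.28; limma adjusted p 0.0937, and 0.0749 with the block).

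The summed MCM level was 182 and 158 FPKM in reporter positive cells, against 273 and 389 FPKM in reporter negative cells. This was 66.6% of the negative level in experiment 1 and 40.6% in experiment 2. The difference between experiments lay mostly on the negative side, where all 6 subunits were higher in experiment 2, by a median of 0.44 on the log2 scale, while the positive libraries moved by a median of -0.20. Over all genes above 0 in every library the negative libraries moved by a median of 0.14 and the positive ones by 0.02.

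For ORC, which binds the origins where copying starts, the 6 genes had a median change of -0.59, but Orc5 and Orc6 were each listed at 0 in 1 positive library, and the 4 genes without a 0 had a median of -0.40. None passed the threshold, with or without the block. Orc1, the subunit whose level is known to follow the cell cycle, had 2.61 and 3.07 FPKM in reporter positive cells, against 4.91 and 5.32 FPKM in reporter negative cells (change -0.67 ± 0.19, limma adjusted p 0.117). Orc4, a core subunit and the most abundant of them, had 26.6 and 29.8 FPKM in reporter positive cells, against 22.2 and 27.7 FPKM in reporter negative cells. Its groups overlapped, and its change was 0.18 ± 0.17 (limma adjusted p 0.566), on the positive side of 0 under all 3 scalings. The summed level of the 4 genes in positive cells was 88.9% of that in negative cells in experiment 1 and 90.4% in experiment 2.

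Orc6, which joins the core complex to help load the helicase, was listed at 0 in the positive library of experiment 1 and had 15.5 FPKM in that of experiment 2, against 20.7 and 26.0 FPKM in reporter negative cells. Orc5, a core subunit, was listed at 0 and had 11.3 FPKM in the same positive libraries, against 12.7 and 13.8 FPKM in reporter negative cells. Cdc45, the helicase partner, was listed at 0 and had 5.49 FPKM in reporter positive cells, against 12.0 and 10.6 FPKM in reporter negative cells. In that library 1 of 2 listed forms of Orc6, 3 of 5 of Orc5 and 2 of 3 of Cdc45 were marked as fully covered by reads, so a value of 0 can be a failed estimate, and no fold is given. In experiment 2, where no value was at 0, the positive level was 59.6% of the negative one for Orc6, 81.9% for Orc5 and 51.7% for Cdc45.

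Among loading and firing factors, Cdc6 had 1.86 and 1.65 FPKM in reporter positive cells, against 3.76 and 4.51 FPKM in reporter negative cells (change -0.90 ± 0.20, limma adjusted p 0.0773). Mcm10, which helps to start the helicase, had 5.64 and 5.29 FPKM in reporter positive cells, against 10.7 and 10.1 FPKM in reporter negative cells (change -0.82 ± 0.17, limma adjusted p 0.0663). Neither gene passed the threshold, though the libraries of each group lay close together and apart from the other group. GINS, the other helicase partner, had 3 measured genes with a median change of -0.62. Gins1 had 13.0 and 11.8 FPKM in reporter positive cells, against 23.4 and 19.5 FPKM in reporter negative cells (change -0.74 ± 0.17; limma adjusted p 0.0822, and 0.0478 with the block). Gins4 had 16.5 and 15.4 FPKM in reporter positive cells, against 23.8 and 26.3 FPKM in reporter negative cells (change -0.62 ± 0.15, limma adjusted p 0.0869). For Gins1 the distance between groups was larger in experiment 1, and for Gins4 in experiment 2.

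All 9 genes of the polymerases and primase were lower in both positive libraries (median change -0.82), and 3 fell past the threshold. Pold1, the catalytic subunit of the lagging-strand polymerase delta (mm9 chr7:51788116-51804219), had 5.70 and 4.80 FPKM in reporter positive cells, against 12.0 and 12.2 FPKM in reporter negative cells (change -1.07 ± 0.18, limma adjusted p 0.0451). Pole, the catalytic subunit of the leading-strand polymerase epsilon (mm9 chr5:110715325-110766493), had 3.69 and 3.50 FPKM in reporter positive cells, against 8.27 and 8.48 FPKM in reporter negative cells (change -1.03 ± 0.17, limma adjusted p 0.0478). By the ratio of means, Pold1 was at 43.4% of its negative level and Pole at 42.9%. Prim1, the catalytic subunit of primase that makes RNA primers (mm9 chr10:127452228-127467093), had 16.9 and 15.9 FPKM in reporter positive cells, against 28.9 and 30.9 FPKM in reporter negative cells (change -0.83 ± 0.14, limma adjusted p 0.0479). Pold2, an accessory subunit of polymerase delta and the most abundant of the 9, had 28.0 and 22.3 FPKM in reporter positive cells, against 32.9 and 38.2 FPKM in reporter negative cells (change -0.49 ± 0.18, limma adjusted p 0.179). The other five genes, Pola1, Pola2, Prim2, Pold3 and Pole2, had changes between -0.84 and -0.46.

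PCNA is the ring that tethers polymerases to DNA, and RFC opens and loads it. Pcna (mm9 chr2:132074898-132079050), the most abundant of all 50 genes, had 74.7 and 67.3 FPKM in reporter positive cells, against 136 and 139 FPKM in reporter negative cells. It averaged 71.0 ± 5.24 FPKM in positive cells and 138 ± 1.71 FPKM in negative cells (SD, n = 2 each), a change of -0.95 ± 0.13 (SE; limma adjusted p 0.0349). The processed pseudogene Pcna-ps2 was listed with 109 and 90.9 FPKM in reporter positive cells, against 172 and 166 FPKM in reporter negative cells. The sources used here do not say how reads were divided between these near-identical sequences, so the level of Pcna is uncertain. Both were lower in the positive libraries.

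Rfc3, a small clamp loader subunit (mm9 chr5:152445331-152453817), had 15.5 and 13.7 FPKM in reporter positive cells, against 34.2 and 31.8 FPKM in reporter negative cells. Its change was -1.12 ± 0.15 (limma adjusted p 0.0318), and the ratio was nearly the same in both experiments, at 45.3% and 43.2%. The other four loader genes did not pass, with changes of -0.60 to -0.20. Rfc5, also a small subunit, had 11.0 and 7.57 FPKM in reporter positive cells, against 8.05 and 13.9 FPKM in reporter negative cells, so it was higher in experiment 1 and lower in experiment 2. Its change turned from -0.20 to 0.02 after scaling by the median of ratios, and all of its FPKM came from forms assembled from the reads.

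RPA coats single-stranded DNA as a trimer. Rpa2 (mm9 chr4:132324247-132334667), the subunit that is phosphorylated under replication stress, had 10.4 and 10.9 FPKM in reporter positive cells, against 21.2 and 27.1 FPKM in reporter negative cells (change -1.10 ± 0.18, limma adjusted p 0.0451). Rpa3, the smallest subunit, had 23.8 and 21.3 FPKM in reporter positive cells, against 40.4 and 36.2 FPKM in reporter negative cells (change -0.74 ± 0.15; limma adjusted p 0.0629, and 0.0363 with the block). Rpa1, the large DNA-binding subunit, was lower in both experiments with a change of -0.53 ± 0.26 (limma adjusted p 0.273), and its 2 negative libraries were spread more widely than those of the other subunits, at 26.3 and 42.8 FPKM.

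The 4 genes of nucleotide synthesis had a median change of -0.59, and none passed the threshold without the block. Rrm2, the cell-cycle-bound subunit of ribonucleotide reductase, had 43.1 and 39.5 FPKM in reporter positive cells, against 66.9 and 69.7 FPKM in reporter negative cells (change -0.71 ± 0.13; limma adjusted p 0.0548, and 0.0374 with the block). Rrm1, its large subunit, had 63.7 and 60.2 FPKM in reporter positive cells, against 70.5 and 106 FPKM in reporter negative cells (change -0.48 ± 0.23, limma adjusted p 0.264). Of the Rrm1 level, 68.8% came from assembled forms, and its groups overlapped once the libraries were scaled by the median of ratios. The Rrm1 change was -1.58 with reference transcripts only and -0.26 with only the most abundant transcript (limma adjusted p 0.259 and 0.493). Tk1, the thymidine kinase of the salvage route, had 26.5 and 27.5 FPKM in reporter positive cells, against 44.2 and 44.1 FPKM in reporter negative cells, and Tyms, thymidylate synthase, had 38.3 and 30.3 FPKM in reporter positive cells, against 47.5 and 48.5 FPKM in reporter negative cells. Tk1 passed with the block (change -0.69 ± 0.13; limma adjusted p 0.0568, and 0.0407 with the block). Tyms did not (change -0.48 ± 0.16; limma adjusted p 0.161, and 0.106 with the block). Of the Tyms level, 77.6% came from assembled forms.

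**Figure D3:**
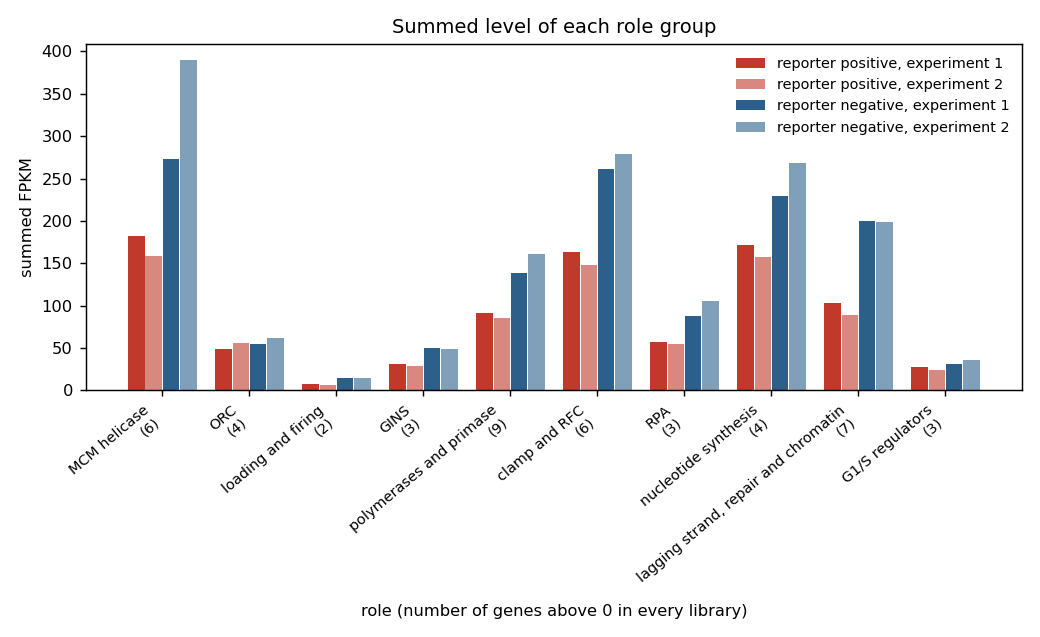
Summed FPKM of each role group by library, over genes above 0 in every library (number in brackets), with reporter positive libraries in red and reporter negative libraries in blue, darker for experiment 1. The MCM bars show the widest gap between experiments on the negative side, at 273 and 389 FPKM, and the ORC bars the ratio of group sums nearest to 1 in experiment 2, at 90.4%.

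The lagging-strand, repair and chromatin genes had the lowest median change of the role groups, at -1.11 over 7 genes, and 3 of them fell past the threshold. Ung (mm9 chr5:114580395-114589332), the uracil-DNA glycosylase that removes uracil from new DNA, had 5.63 and 4.24 FPKM in reporter positive cells, against 17.2 and 16.8 FPKM in reporter negative cells. It averaged 4.94 ± 0.98 FPKM in positive cells and 17.0 ± 0.27 FPKM in negative cells (SD, n = 2 each), which is 29.0% of the negative level and a change of -1.61 ± 0.19 (SE; limma adjusted p 0.0259). Slbp, which binds the stem-loop of replication-dependent histone messages (mm9 chr5:33977601-33995223), had 15.2 and 14.9 FPKM in reporter positive cells, against 35.9 and 31.8 FPKM in reporter negative cells (change -1.12 ± 0.15, limma adjusted p 0.0316). Chaf1b, a subunit of the chromatin assembly factor that places histones behind the fork (mm9 chr16:93884146-93906360), had 12.3 and 9.60 FPKM in reporter positive cells, against 22.9 and 23.3 FPKM in reporter negative cells (change -1.02 ± 0.18, limma adjusted p 0.0499). Its partner Chaf1a was spread more widely between experiments, with a change of -0.57 ± 0.26 (limma adjusted p 0.247).

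Lig1, the ligase that seals Okazaki fragments, had 25.1 and 16.0 FPKM in reporter positive cells, against 55.7 and 39.1 FPKM in reporter negative cells. Both groups were higher in experiment 1. Its change of -1.18 ± 0.29 had a limma adjusted p of 0.0901, and of 0.0176 with the block. Uhrf1, which guides DNA methylation to new strands, had 12.7 and 13.2 FPKM in reporter positive cells, against 24.5 and 34.6 FPKM in reporter negative cells. It passed with the block (change -1.11 ± 0.21; limma adjusted p 0.0565, and 0.0315 with the block). Fen1, the flap nuclease, did not pass (change -0.58 ± 0.14, limma adjusted p 0.0901), and 84.2% of its exonic bases lie under exons of genes on the opposite strand. The sources used here do not say whether counting used strand, and 15 of the 50 genes share some exonic bases with another gene, at 10.7% to 17.4% of them for Orc1, Orc2, Mcm7, Rfc4, Rfc5 and Ccne2. The split of reads between these genes and their neighbours is uncertain.

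Of the G1/S regulators, E2f1, the transcription factor that drives many of these genes, had 3.15 and 2.55 FPKM in reporter positive cells, against 5.57 and 8.10 FPKM in reporter negative cells (change -1.01 ± 0.24, limma adjusted p 0.0886). Ccne2, the cyclin E2 gene, had 5.44 and 5.04 FPKM in reporter positive cells, against 8.08 and 11.0 FPKM in reporter negative cells (change -0.74 ± 0.21, limma adjusted p 0.120). Ccne1, the cyclin E1 gene, had 19.5 and 16.0 FPKM in reporter positive cells, against 17.6 and 16.7 FPKM in reporter negative cells (change 0.04 ± 0.17, limma adjusted p 0.907). None of the 3 passed in the fit reported, and the groups overlapped for Ccne1 alone among them. The E2f1 change was -2.01 with reference transcripts only (limma adjusted p 0.0840). It was -1.83 with only the most abundant transcript, where E2f1 passed (limma adjusted p 0.0416). Under both choices Ccne2 stayed at -0.74 and Ccne1 was at 0.30. The difference between the 2 cyclin E genes was not tested.

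**Figure D4:**
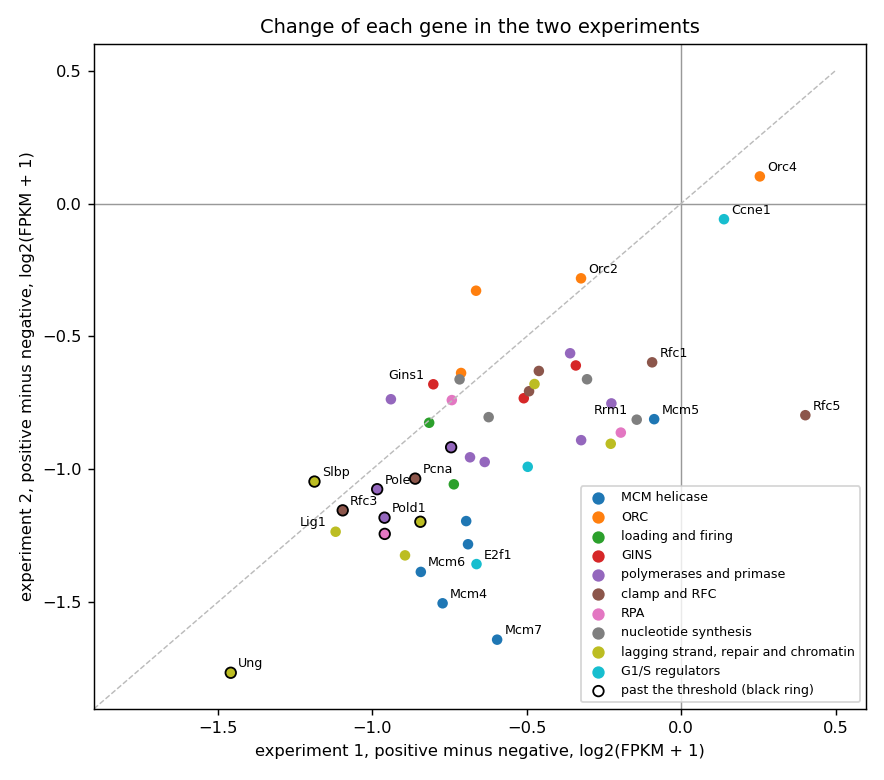
Change of each of the 47 genes above 0 in every library, reporter positive minus reporter negative on the log2(FPKM + 1) scale, in experiment 1 (x axis) and experiment 2 (y axis), coloured by role, with the 9 genes past the threshold ringed in black. The 39 genes below the dashed line of equal change had the lower value in experiment 2, and Ung lies farthest from 0 on both axes.

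The change was lower in experiment 2 than in experiment 1 for 39 of the 47 genes above 0 in every library, and the difference between experiments was not tested. Their median change was -0.66 in experiment 1 and -0.86 in experiment 2, beside -0.13 and -0.24 for all genes above 0 in every library. Genes whose ratio differed little between experiments included Rpa3, at 58.8% of the negative level in both, and Mcm10, at 52.8% and 52.2%.

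Other genes of the same processes were listed by name as companions. Of 39 further fork and licensing genes 37 were tested, since Donson and Rnaseh2a were listed at 0 in every library. Their median change was -0.64, with 2 genes higher, 2 lower and 33 not past the threshold (2 higher and 8 lower with the block). Over all genes tested, 2.55% were higher and 2.52% lower (4.09% and 6.36% with the block). Samhd1, which breaks down deoxynucleotides, had 49.0 and 48.9 FPKM in reporter positive cells, against 15.4 and 14.8 FPKM in reporter negative cells (change 1.63 ± 0.13, limma adjusted p 0.0130). Pold4, the smallest subunit of polymerase delta, had 49.6 and 47.6 FPKM in reporter positive cells, against 28.7 and 24.3 FPKM in reporter negative cells (change 0.85 ± 0.15, limma adjusted p 0.0499, and 0.0536 after quantile normalization). Pold4 thus rose and Pold1 fell, both subunits of polymerase delta.

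Dnmt1, the maintenance DNA methyltransferase, had 15.6 and 15.5 FPKM in reporter positive cells, against 32.3 and 37.1 FPKM in reporter negative cells (change -1.10 ± 0.15, limma adjusted p 0.0326). Timeless, a fork protection factor, had 3.71 and 3.54 FPKM in reporter positive cells, against 8.56 and 10.1 FPKM in reporter negative cells (change -1.16 ± 0.19, limma adjusted p 0.0436). All 4 companion calls were lost when any 1 library was left out, with adjusted p between 0.0506 and 0.286. Of 18 further G1/S and E2F genes none passed in limma, 8 were lower at an unadjusted p under 0.05, and 2 were lower with the block, Fbxw7 and Cables1. Over all genes tested, 18.0% were lower at that unadjusted p and 6.36% with the block. The median change of the 18 genes was -0.50. The 7 E2F genes among them had changes of -0.43 (E2f6), -0.39 (E2f3), -0.23 (E2f2), -0.09 (E2f5), 0.01 (E2f4), 0.13 (E2f7) and 0.27 (E2f8), none past the threshold.

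**Figure D5:**
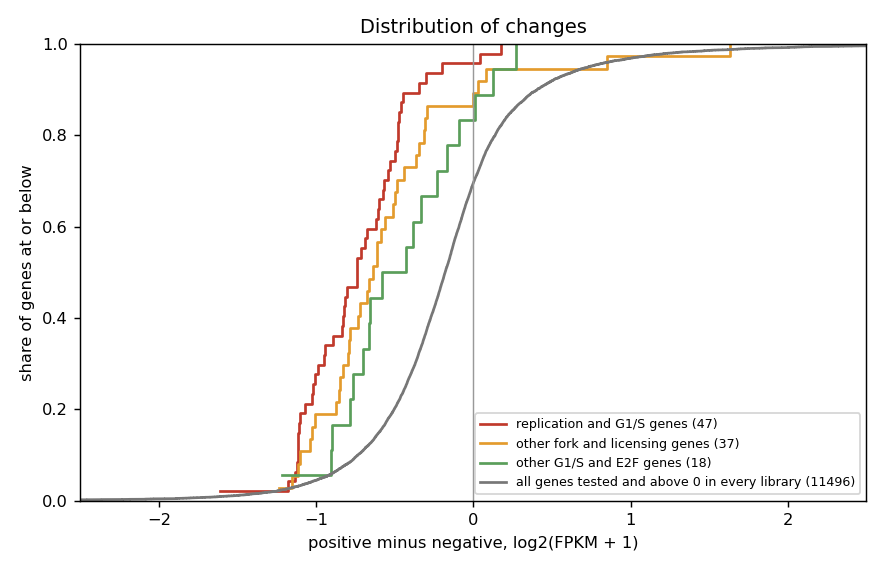
Share of genes (y axis) with a change at or below the value on the x axis, reporter positive minus reporter negative on the log2(FPKM + 1) scale, for the 47 replication and G1/S genes above 0 in every library, 37 companion fork and licensing genes, 18 companion G1/S and E2F genes and 11496 genes tested and above 0 in every library. The red line lies left of the grey one, with medians of -0.74 and -0.18, and the 2 companion lists lie between them at -0.64 and -0.50.

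Markers of cell types, the sorting genes and depth were also set beside the groups. The differentiation, basal, leukocyte and endothelial sums and Itga6 did not overlap between the groups. The fibroblast and melanocyte sums, Cd44 and depth did. The 12 measured differentiation markers of keratinocytes summed to 8515 and 8279 FPKM in reporter positive cells, against 1757 and 1386 FPKM in reporter negative cells. Of the 11 tested, 8 were higher, against 2.55% of all genes. Without Sprr1b, the highest, the sums were 4280 and 4653 FPKM in reporter positive cells, against 1155 and 1099 FPKM in reporter negative cells. Krt10, Lor and Flg overlapped between the groups. Of the sorting proteins, Itga6 had 181 and 205 FPKM in reporter positive cells, against 331 and 410 FPKM in reporter negative cells, and Cd44 had 88.0 and 81.3 FPKM in reporter positive cells, against 81.5 and 112 FPKM in reporter negative cells. The 9 measured basal keratinocyte genes summed to 3828 and 3931 FPKM in reporter positive cells, against 3207 and 3380 FPKM in reporter negative cells. Perp carried that sum, and the other 8 summed to 1108 and 1229 FPKM in reporter positive cells, against 1664 and 1979 FPKM in reporter negative cells. The median change of the 9 was -0.64, and both positive libraries were below both negative ones for 5 and above them for 2 (42.6% and 15.3% of all genes). Of the 9, 1 was past the threshold and lower (Col17a1), and with the block 4 were lower and 1 higher. Over all genes 2.52% were lower, and with the block 6.36% were lower and 4.09% higher. Fibroblast markers summed to 12.9 and 27.7 FPKM in reporter positive cells, against 27.4 and 41.7 FPKM in reporter negative cells. Leukocyte markers summed to 15.4 and 31.0 FPKM in positive cells, against 31.2 and 49.0 FPKM in negative cells. Cd74 carried that difference, and without it the other 8 summed to 6.97 and 13.6 FPKM in positive cells, against 5.58 and 6.99 FPKM in negative cells, the opposite order. Of the 3 tested leukocyte markers, with a median change of 0.34, none passed the threshold. Ptprc stayed at 0.36 FPKM or less in all 4 libraries. Endothelial markers summed to 2.82 and 2.90 FPKM in positive cells, against 4.72 and 10.7 FPKM in negative cells. The 4 melanocyte markers summed to 0.24 and 0.78 FPKM in positive cells, against 0.70 and 0.61 FPKM in negative cells, and 1 of them, Pmel, was listed at 0 in every library. The part of these measures in the lower replication transcripts was not tested. Depth was estimated as the median over transcripts of read coverage divided by FPKM. It came to 3.55 and 3.29 aligned gigabases in the positive libraries, against 3.13 and 3.75 gigabases in the negative ones.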

How the data were processed

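RNA from 4 sorted libraries, 2 per group by the reporter state in the titles, was read as FPKM (fragments scaled to transcript length and depth), the value that the authors' Cufflinks transcript files hold per the file headers. The submitters' processing notes name TopHat, Cufflinks and the mouse build mm9, with no versions. FPKM was summed per gene over transcripts of at least 200 exonic bases. Shorter ones carried 95.1% to 98.9% of deposited FPKM and were left out. Names came from GENCODE M21 for 84047 of 96734 reference transcripts and from identifiers in the files for 5138. The rest, and assembled forms, went to the gene whose exons held at least 50% of them. Of the 50 genes, 13 had at least 10% of their FPKM in assembled forms.

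Genes at 1 FPKM or more in 2 or more libraries were fitted with limma 3.58.1 (R 4.3.3, eBayes with trend) on log2(FPKM + 1), positive minus negative, with two-sided p adjusted by Benjamini-Hochberg over all 11969 genes and called under 0.05. This scale understates the change of low genes. The test was tested on simulated data first. The titles number the experiment, which pairs the libraries, and deviations of same-numbered libraries had r = 0.174 over all genes and 0.306 over genes above 0 in every library. The fit with the experiment as a block is an alternative. The bounds of the authors' interval, which covers counting error only, were read for the most abundant transcript of each gene in each library. They lay 3.88% to 23.0% from that transcript's value (median 7.86%), taking the median over libraries for each gene. No interval was computed for the summed value of a gene. The alternatives changed the pseudocount, filter, scaling, transcript choice, block, variance model and libraries. The exon coordinates printed are mm9, and promoters are RefSeq GRCm38.p6. The count of genes apart after scaling was added after seeing the data.

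The members and lists were chosen with earlier results of these data known, so no list was tested. Genes named with values were those past the threshold, those with the highest mean or smallest p in each role group, those listed at 0 in a library, and Pcna, Mcm2, Cdc6, Ccne1, Ccne2, E2f1 and Rrm2. The rule also names Cdt1, for which no expression value is given. Others named (Mcm3, Mcm4, Mcm7, Rfc5, Rpa1, Tk1, Tyms, Uhrf1, Fen1, Chaf1a, and in the companion lists Fbxw7, Cables1 and the E2F genes) were chosen after their values were seen. Sums without the highest gene of a marker list were added after seeing the data. Of the marker lists, Krt1, Krt5 and Krt14 were not analysed here.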

Additional observations from a re-analysis of the deposited data

How the results depend on the processing

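The count of the 50 genes past the threshold, 9 in the fit reported, changed with most alternatives, and every such call was a fall. It was 6 with a pseudocount of 0.1, 0 with no filter on low values, 14 with a minimum of 5 FPKM (47 genes tested), 26 with genes at 0 left out (47 tested), 2 after scaling by the median of ratios, 5 after quantile normalization, 0 with reference transcripts only (48 tested), 4 with only the most abundant transcript of each gene (1 of them, Rfc3, among the 9), and 17 with a robust variance. With the experiment as a replicate block it was 19, and 37 with genes at 0 left out as well. With 1 library left out none of the 9 was called, and Orc5 and Orc6 were called only where their 1 positive value was a 0. A lone library is then assumed to vary like the other group.

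Over all genes the count of 607 (305 higher, 302 lower) became 4 with no filter, 1209 with genes at 0 left out, 71 with reference transcripts only, 312 with the most abundant transcript, 973 with a robust variance, 1250 with the replicate block, 3144 with the block and genes at 0 left out, and 3 to 179 with 1 library left out. The split was 457 higher and 204 lower after scaling by the median of ratios, and 407 higher and 252 lower after quantile normalization. Falls alone numbered 743 of 11496 with genes at 0 left out, and 2226 of 11496 with the block as well. They numbered 224 of 11969 with a pseudocount of 0.1 and 321 of 8763 with a minimum of 5 FPKM. With no filter 1 of 20037 fell, with reference transcripts only 31 of 10968, and with the most abundant transcript 131 of 11621. Of 11969 genes, 560 fell with a robust variance and 761 with the block.

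The median change of -0.77 moved to -0.56 after scaling by the median of ratios and to -0.61 after quantile normalization, and ranged from -0.88 to -0.73 with 1 library left out. E2F-type forms were in 16 of the 44 listed genes with a window (Cdt1 included), and in 10 within 200 bases before the start. The change of Ccne1 ranged from -0.095 (without positive replicate 1, a reversal) to 0.17 with 1 library left out. The genes picked by the naming rule gave 427 values under alternatives. Of these, 310 kept their direction and side of the threshold, 76 lost the threshold, 40 gained it and 1 reversed. Only the 9 genes past the threshold in the fit reported could lose it, so all 76 losses were theirs. Genes named after their values were seen are not in the count of 427. Among those, Rfc5 turned from -0.20 to 0.02 after scaling by the median of ratios. The cause of these shifts was not tested. With 2 libraries per group, a gene that missed the threshold may still differ.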

Other observations

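FPKM is per length, so levels of subunits of one complex can be set side by side within a group. In reporter positive cells the order of the MCM ring was Mcm5 at 48.1 ± 7.64 FPKM, Mcm4 at 32.2 ± 0.43, Mcm6 at 25.7 ± 1.12, Mcm3 at 25.1 ± 2.95, Mcm2 at 21.1 ± 1.86 and Mcm7 at 17.6 ± 3.47 FPKM (SD, n = 2). In reporter negative cells Mcm4 led at 74.6 ± 27.4 FPKM, before Mcm5 at 66.3 ± 13.3 FPKM, and no subunit was apart from its neighbour by more than their libraries' spread. In positive cells Mcm6 and Mcm3, and Mcm2 and Mcm7, were not apart either. Mcm7 was lowest in both groups. Forms assembled from the reads gave 45.4% of the FPKM of Mcm7 and 31.6% of that of Mcm4.

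Among the 4 ORC genes above 0 in every library the order was Orc4, Orc2, Orc3 and Orc1 in both groups. Orc4 had 28.2 ± 2.26 FPKM and Orc1 2.84 ± 0.32 FPKM in positive cells (SD, n = 2). In negative cells Orc4 had 24.9 ± 3.93 FPKM and Orc1 5.12 ± 0.29 FPKM (SD, n = 2). Each of these 4 genes was apart from the next in both groups. Orc5 and Orc6, each listed at 0 in 1 positive library, were left out of this order. In negative cells Orc6 had 20.7 and 26.0 FPKM, which overlapped Orc4. Orc5 had 12.7 and 13.8 FPKM there, which overlapped Orc3. Among the polymerase genes Pold2 was highest and Pole lowest in both groups, at 25.1 ± 4.03 and 3.60 ± 0.13 FPKM in positive cells, and at 35.6 ± 3.76 and 8.37 ± 0.15 FPKM in negative cells. Gins3 was the lowest of the measured GINS genes, at 1.77 ± 0.09 FPKM in positive cells and 2.88 ± 0.64 FPKM in negative cells.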
